A study of Mus musculus with 32 samples.

Results

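The cultures described are monolayer neural progenitor cells (NPCs) derived from J1 mouse embryonic stem cells and collected on day 10 of differentiation. They make up 4 of the 32 RNA-seq libraries of the series, and were chosen by stage and treatment alone. Separate cultures received 100 nM bisphenol A (BPA), 100 nM bisphenol F (BPF), 100 nM bisphenol S (BPS) or DMSO, the solvent control, and each of the 4 treatments has 1 library. All 4 share the 129S4/SvJae strain background and the 1 stem cell line. By the design text, NPCs were obtained through embryoid bodies (EBs), floating aggregates of differentiating stem cells, and the EBs sampled on day 8 of this route had received retinoic acid (RA) for 4 days. BPA, BPF and BPS each carry a pair of phenol rings. The rings are joined in BPA by a carbon bearing methyl groups, in BPF by a methylene group and in BPS by a sulfonyl group.

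Neural progenitors are dividing cells of the embryonic nervous system that express Sox2, Pax6 and Nes and give rise to neurons and then to glia. In culture they arise beside cells of other lineages, among them mesenchymal cells, which secrete fibrillar collagens and other extracellular matrix. Signalling by TGF-beta and activin, and the mechanically regulated transcription factors YAP/TEAD and SRF, are known to raise matrix, cytoskeletal and contractile genes in mesenchymal cells. Bisphenols are studied as ligands of estrogen receptors and other nuclear receptors.

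Levels are given as FPKM, a fragment count scaled by gene length and sequencing depth, which can be compared between genes. The 4 libraries held between 9970352 and 10076049 expected counts, the estimated number of fragments per gene, and between 16326 and 16618 listed genes. Differences were tested on the counts of 13314 genes with a mean of at least 1 CPM, the count scaled to library size, over the 4 libraries. The 3 bisphenol libraries were set as 1 class against the DMSO library, so the spread comes from the 3 different compounds and the DMSO library is assumed to vary as they do. A gene counts as called where edgeR's quasi-likelihood test gave an adjusted p under 0.05, by the Benjamini-Hochberg method over all genes tested. With 1 DMSO culture, an effect of treatment and a property of that culture cannot be told apart. The labels do not say how cultures were replicated, so these p-values measure only the spread between these samples.

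The label names progenitors, and markers of both progenitors and neurons were present in every library. Sox2 had 68.1, 53.6 and 55.7 FPKM with BPA, BPF and BPS, against 45.6 FPKM with DMSO. Tubb3, a neuronal tubulin, had 1042, 1057 and 1103 FPKM with BPA, BPF and BPS, against 1040 FPKM with DMSO. Neuronal and progenitor RNA was thus abundant in all 4 cultures. The 7 progenitor markers summed to 566, 520 and 506 FPKM with BPA, BPF and BPS, against 472 FPKM with DMSO. The 11 neuronal markers had higher sums, at 2430, 2580 and 2530 FPKM with BPA, BPF and BPS, against 2370 FPKM with DMSO. Markers of mesenchymal cells or fibroblasts differed more. Their summed level over 9 genes was 202, 178 and 207 FPKM with BPA, BPF and BPS, against 424 FPKM with DMSO, and each of the 9 was below DMSO in all 3 bisphenol libraries. The 6 smooth muscle markers summed to 57.4, 39.0 and 86.6 FPKM with BPA, BPF and BPS, against 167 FPKM with DMSO. The 9 endoderm or epithelial markers summed to 70.5, 32.1 and 52.9 FPKM with BPA, BPF and BPS, against 87.0 FPKM with DMSO, with Alb at 0 in all 4. Blood markers summed to at most 0.69 FPKM in any library, with Hbb-bh1, Gata1 and Spi1 at 0 throughout, and astrocyte markers to at most 0.63 FPKM, with Gfap at 0 throughout. In these bulk libraries, fewer cells of a type and less RNA per cell cannot be told apart.

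Bisphenol-treated cultures had less RNA for extracellular matrix, contractile, TGF-beta and epithelial genes than the DMSO culture, while none of the neuronal cytoskeleton or cell cycle genes examined passed the test. Of the 13314 genes tested, 327 were lower with bisphenols (2.46%) and 27 were higher (0.203%), which makes 354 calls in either direction (2.66%). The 327 lower genes had a median log2 change of -1.01, where -1 is a level divided by 2. All 3 bisphenol libraries lay below the DMSO library in FPKM for 24.6% of the genes tested and above it for 32%, so a common side of DMSO was by itself usual. The standard deviation of log2 differences over genes was 0.312 to 0.355 between bisphenol libraries and 0.396 to 0.446 between a bisphenol library and the DMSO library. The number of calls depended on the tool: DESeq2 called 212 genes, and limma on log2(FPKM + 1) called 54.

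**Figure D1:**
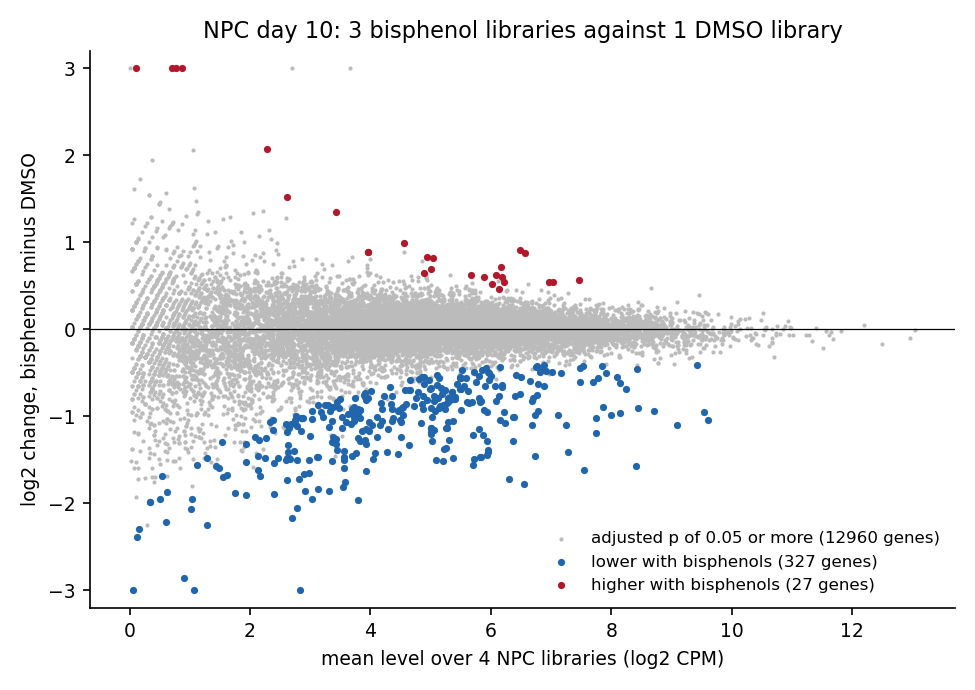
Each point is 1 of 13314 genes in NPC cultures on day 10. The horizontal axis is the mean level over the 4 libraries (log2 CPM) and the vertical axis is the log2 change of the 3 bisphenol libraries against the DMSO library, with changes beyond 3 drawn at 3; the 327 lower genes (blue) outnumber the 27 higher genes (red).

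Genes of the extracellular matrix made up the broadest group of lower genes. Of 23 tested genes for fibrillar and network collagens, 15 fell (65.2%), against 2.46% of all genes tested, and none rose. The list's median log2 change was -1.05, against 0.00 over all genes tested. Col3a1, the chain of collagen III, had 117, 105 and 109 FPKM with BPA, BPF and BPS, against 223 FPKM with DMSO. It fell by 1.05 on the log2 scale (SE 0.09, adjusted p = 5.4e-05). Col1a1, a chain of collagen I, had 18.5, 16.8 and 27.1 FPKM with BPA, BPF and BPS, against 62.4 FPKM with DMSO. It fell by 1.61 on the log2 scale (SE 0.18, adjusted p = 0.00017), and none of the bisphenol libraries reached the level of the DMSO library. Col12a1, Col8a1 and Col5a1 fell by 1.49, 1.47 and 1.41 on the log2 scale. Against 24.6% of all genes tested, all 23 tested collagens were lower than DMSO in each of the bisphenol libraries. Basement membrane collagens were among them: Col4a1 fell by 0.94 and Col4a2 by 0.96 on the log2 scale.

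Of 38 tested genes for other matrix proteins and the enzymes that crosslink or cut them, 29 fell and none rose. The 29 are 76.3%, against 2.46% of all genes tested, and the list's median log2 change was -1.12. Tnc, the matrix glycoprotein tenascin C, had 7.91, 4.11 and 12.5 FPKM with BPA, BPF and BPS, against 27.5 FPKM with DMSO. Its log2 change was -1.78 (SE 0.31, adjusted p = 0.0048). Thbs1, thrombospondin 1, had 8.56, 5.02 and 12.2 FPKM with BPA, BPF and BPS, against 27.8 FPKM with DMSO. Its log2 change was -1.72 (SE 0.26, adjusted p = 0.0014). In both genes the BPF library was lowest and the BPS library nearest to DMSO, and both calls were lost in DESeq2 and in limma with a pseudocount of 1 or 0.1 added to the FPKM. Fbln5, which organises elastic fibres, had 1.16, 1.25 and 1.26 FPKM with BPA, BPF and BPS, against 4.20 FPKM with DMSO, and its log2 change was -1.81 (SE 0.18, adjusted p = 8.9e-05). Timp1, an inhibitor of matrix metalloproteinases, fell by 1.67 on the log2 scale. Fn1, fibronectin, had 31.74, 19.01 and 32.02 FPKM with BPA, BPF and BPS, against 80.32 FPKM with DMSO. Mmp2, a gelatinase, had 7.75, 6.33 and 8.83 FPKM with BPA, BPF and BPS, against 21.1 FPKM with DMSO. The mesenchymal markers summed above include Col1a1, Col1a2 and Col3a1, so their sum is not a separate measure from the matrix genes. The part of mesenchymal cells in the result was not tested. With limma on log2(FPKM + 1), 7 collagens and 10 other matrix genes were called.

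Smooth muscle genes, which encode actin, myosin and their partners in contractile cells, fell in 9 of 17 cases (52.9%), against 2.46% of all genes tested. Their median log2 change was -0.98. All 17 were below DMSO in each bisphenol library, against 24.6% of all genes tested. Actg2, an actin of smooth muscle, had 2.94, 1.51 and 4.30 FPKM with BPA, BPF and BPS, against 11.9 FPKM with DMSO. Its log2 change was -2.06 (SE 0.32, adjusted p = 0.0023). Acta2, the alpha actin of smooth muscle and myofibroblasts, had 26.5, 18.6 and 41.5 FPKM with BPA, BPF and BPS, against 77.7 FPKM with DMSO, a log2 change of -1.46. Tagln, transgelin, fell by 1.44 and Myl9, a myosin light chain, by 1.26 on the log2 scale. The order BPF, BPA, BPS, DMSO from low to high held for each of Actg2, Acta2 and Tagln. Myh11 and Cnn1, which mark mature smooth muscle, were low, at 0.29, 0.15 and 0.39 FPKM for Myh11 with BPA, BPF and BPS, against 0.80 FPKM with DMSO, and neither was called. Mesenchyme transcription factors were called in 1 of 19 cases (5.26%), with a median log2 change of -0.63. All 3 bisphenol libraries were below DMSO for 14 of these factors and above it for 2. The called factor was Prrx1, with 4.89, 5.70 and 6.28 FPKM with BPA, BPF and BPS, against 10.7 FPKM with DMSO, and a log2 change of -0.94. With limma on log2(FPKM + 1), 1 smooth muscle gene, not Actg2, and no mesenchyme factor was called.

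Several ligands and secreted regulators of TGF-beta, activin and BMP signalling fell. They were 7 of 24 tested genes of that pathway list (29.2%), against 2.46% of all genes tested. The list's median log2 change was -0.66, and no member was higher. Inhba, which encodes the beta A subunit of activin A (chr13:16004256-16031609, mm10), had 2.83, 1.19 and 2.90 FPKM with BPA, BPF and BPS, against 10.2 FPKM with DMSO. The bisphenol libraries averaged 2.31 ± 0.968 FPKM (SD, n = 3), and the log2 change was -2.17 (SE 0.31, adjusted p = 0.0011). Fst, follistatin, which binds and blocks activin, had 1.94, 1.05 and 2.25 FPKM with BPA, BPF and BPS, against 6.08 FPKM with DMSO, a log2 change of -1.86 (SE 0.28, adjusted p = 0.0018). The ligand and its antagonist were thus both lower with bisphenols. Tgfb1, a TGF-beta ligand, had 2.19, 0.87 and 2.28 FPKM with BPA, BPF and BPS, against 5.80 FPKM with DMSO, a log2 change of -1.73 (SE 0.33, adjusted p = 0.0097). Ltbp1, which holds latent TGF-beta in the matrix, had 3.98, 3.02 and 4.31 FPKM with BPA, BPF and BPS, against 10.3 FPKM with DMSO, a log2 change of -1.48. The remaining called members were Tgfbi, Bmp4 and Tgfb2, at -1.33, -1.26 and -1.07 on the log2 scale. Limma on log2(FPKM + 1) called 3 members of this list, and the calls for Inhba, Fst and Tgfb1 were lost with it and with log2(FPKM + 0.1).

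Of 19 tested immediate early genes and targets of YAP/TEAD and SRF, 6 fell (31.6%), against 2.46% of all genes tested, and none rose. The list's median log2 change was -0.57. Ccn2, a matricellular protein and YAP/TEAD target, had 17.2, 12.0 and 14.5 FPKM with BPA, BPF and BPS, against 42.1 FPKM with DMSO, a log2 change of -1.56 (SE 0.14, adjusted p = 5.4e-05). Its relative Ccn1 had 25.4, 19.1 and 21.6 FPKM with BPA, BPF and BPS, against 56.3 FPKM with DMSO, a log2 change of -1.39 (SE 0.12, adjusted p = 5.4e-05). These bisphenol libraries lay close together and far from DMSO. Atf3 and Junb, AP-1 type transcription factors, fell by 1.41 and 1.18 on the log2 scale. Egr1 and Vcl, the focal adhesion protein vinculin, fell by 1.13 and 0.74. Jun, another AP-1 member, had 34.2, 30.2 and 28.9 FPKM with BPA, BPF and BPS, against 38.0 FPKM with DMSO, and was not called. Limma on log2(FPKM + 1) called 2 genes of this list and none of the endoderm and epithelium list.

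**Figure D2:**
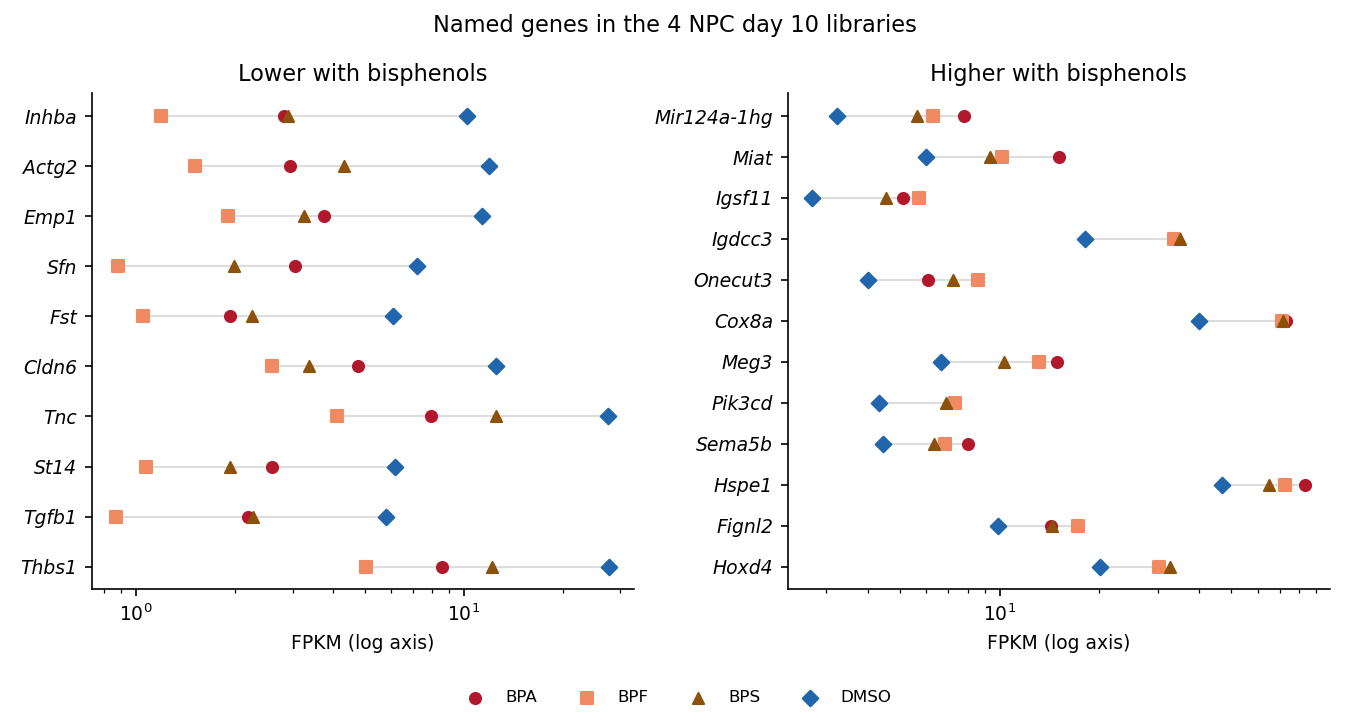
FPKM (log axis) of the genes with the lowest log2 change (left, without the H2A genes at 0) and the highest (right) among called genes, in the 4 NPC libraries, 1 library per point. By the rule that chose these genes, the DMSO library is highest on the left and lowest on the right. Inhba had 10.2 FPKM with DMSO against 1.19 to 2.90 FPKM with bisphenols, and Igdcc3 had 18.1 FPKM against 33.5 to 34.9 FPKM.

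The promoters of the lower genes were searched on both strands for the TEAD motif CATTCC and the AP-1 motif TGANTCA, in windows running from 250 bases before to 50 bases after each start site (RefSeq, GRCm38.p6). Of 241 lower genes with a window, 20.3% held the TEAD letters, against 14.3% of 10536 tested genes with a window, and 10.4% held the AP-1 letters, against 5.64%. The hormone receptor motif AGGTCA was in 12.4% of lower genes, against 14.4% of tested genes, the aryl hydrocarbon receptor core TTGCGTG in 1.66%, against 2.07%, and the E-box CANNTG in 65.6%, against 66.7%. The 6 windows printed here are examples and do not represent these shares. Every match to the TEAD, AP-1, hormone receptor and aryl hydrocarbon letters is in capitals, and the E-box is left unmarked. Inhba is shown as the named gene with the lowest change outside the H2A genes, and Igdcc3 as a gene that rose and is described with the higher genes. Ccn1, Emp1, Col3a1 and Cldn6 were picked after their values and motifs were seen. The windows of Miat, Igsf11, H2ac24 and H2ac19, also chosen by their rank in log2 change, are not printed. Miat, Igsf11 and H2ac24 hold none of the marked motifs, and H2ac19 holds 1 aryl hydrocarbon match. The windows lie at chr13:16011601-16011900, plus strand (Inhba), chr3:145649936-145650235, minus strand (Ccn1), chr6:135362681-135362980, plus strand (Emp1), chr1:45311288-45311587, plus strand (Col3a1), chr17:23679115-23679414, plus strand (Cldn6) and chr9:65140904-65141203, plus strand (Igdcc3).
Inhba: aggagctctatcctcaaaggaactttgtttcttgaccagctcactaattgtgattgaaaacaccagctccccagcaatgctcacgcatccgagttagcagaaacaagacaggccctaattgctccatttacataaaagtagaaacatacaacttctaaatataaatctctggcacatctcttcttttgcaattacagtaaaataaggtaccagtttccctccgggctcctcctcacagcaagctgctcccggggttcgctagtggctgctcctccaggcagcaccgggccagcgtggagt
Ccn1: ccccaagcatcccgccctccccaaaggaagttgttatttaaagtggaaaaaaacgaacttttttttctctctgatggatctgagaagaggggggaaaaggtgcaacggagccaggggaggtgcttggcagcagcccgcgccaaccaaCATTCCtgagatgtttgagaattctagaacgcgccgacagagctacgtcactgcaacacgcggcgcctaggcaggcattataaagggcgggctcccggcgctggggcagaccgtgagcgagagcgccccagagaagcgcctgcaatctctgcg
Emp1: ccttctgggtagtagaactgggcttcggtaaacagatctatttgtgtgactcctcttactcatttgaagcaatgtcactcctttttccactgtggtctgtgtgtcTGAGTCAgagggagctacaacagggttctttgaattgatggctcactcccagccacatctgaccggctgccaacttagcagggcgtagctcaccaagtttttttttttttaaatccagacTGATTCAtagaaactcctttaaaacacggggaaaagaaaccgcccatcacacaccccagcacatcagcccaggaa
Col3a1: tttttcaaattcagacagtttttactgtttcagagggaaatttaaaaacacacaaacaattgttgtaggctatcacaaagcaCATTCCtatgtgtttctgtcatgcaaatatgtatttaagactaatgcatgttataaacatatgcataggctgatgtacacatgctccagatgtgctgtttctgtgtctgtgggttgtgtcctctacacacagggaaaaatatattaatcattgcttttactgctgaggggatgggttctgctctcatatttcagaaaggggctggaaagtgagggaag
Cldn6: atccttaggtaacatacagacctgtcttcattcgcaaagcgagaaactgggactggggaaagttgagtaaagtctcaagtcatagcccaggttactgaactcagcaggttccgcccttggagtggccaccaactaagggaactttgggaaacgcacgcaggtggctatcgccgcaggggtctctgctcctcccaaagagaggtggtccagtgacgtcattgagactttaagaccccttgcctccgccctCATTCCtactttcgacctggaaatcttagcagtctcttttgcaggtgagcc
Igdcc3: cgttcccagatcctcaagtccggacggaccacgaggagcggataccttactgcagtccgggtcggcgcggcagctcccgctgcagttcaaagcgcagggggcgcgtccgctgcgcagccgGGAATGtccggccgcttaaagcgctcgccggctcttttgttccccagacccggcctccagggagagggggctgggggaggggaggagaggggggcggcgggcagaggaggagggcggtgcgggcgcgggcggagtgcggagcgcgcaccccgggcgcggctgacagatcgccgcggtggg
Ccn1, Col3a1 and Cldn6 each hold 1 TEAD match, starting at -103, -168 and -1 from the start site. The Emp1 window shown holds 2 AP-1 matches, starting at -145 and -25, and the window of its other start site, at chr6:135367243-135367542, holds no match to the marked motifs. Inhba, with the most negative change, holds none of these letters, and Igdcc3, which rose, holds a TEAD match on the other strand. Of 19 higher genes with a window, 26.3% held the TEAD letters, 5.26% the AP-1 letters and 26.3% the hormone receptor letters. A match describes the letters of the window and not a bound site.

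Epithelial genes fell as well: 5 of 14 tested genes of the endoderm and epithelium list were lower (35.7%) and none higher. Over all genes tested 2.46% were lower, and the list's median log2 change was -1.13. Cldn6, a tight junction claudin of early epithelia, had 4.76, 2.59 and 3.38 FPKM with BPA, BPF and BPS, against 12.5 FPKM with DMSO. Its log2 change was -1.83 (SE 0.25, adjusted p = 0.00071). Epcam, an epithelial adhesion molecule, had 3.98, 2.05 and 2.87 FPKM with BPA, BPF and BPS, against 8.01 FPKM with DMSO, a log2 change of -1.46. Gata4 and Cldn4 fell by 1.48 and 1.46 on the log2 scale, and Cdh1, E-cadherin, by 1.20. Emp1, an epithelial membrane protein, had 3.73, 1.91 and 3.26 FPKM with BPA, BPF and BPS, against 11.3 FPKM with DMSO, a log2 change of -1.96 (SE 0.23, adjusted p = 0.0003). Sfn, the epithelial 14-3-3 protein sigma, and St14, the membrane protease matriptase, fell by 1.89 and 1.76 on the log2 scale, and the call for St14 was lost in DESeq2. In limma with either pseudocount the calls for Cldn6, Emp1, Sfn and St14 were lost. Keratins of simple epithelia were not called. Krt18 had 33.6, 12.5 and 24.5 FPKM with BPA, BPF and BPS, against 33.5 FPKM with DMSO, so that BPA was level with DMSO and BPF lowest. The count of called members of this list was 3 in DESeq2 and 8 or 9 without the BPF or the BPA library.

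Genes that were higher with bisphenols were fewer, and those of them described here that had counts in every library rose by at most 0.99 on the log2 scale. Igdcc3, a membrane protein of the immunoglobulin superfamily (chr9:65141154-65187031, mm10), had 33.5, 33.6 and 34.9 FPKM with BPA, BPF and BPS, against 18.1 FPKM with DMSO. The bisphenol libraries averaged 34.0 ± 0.795 FPKM (SD, n = 3), and the log2 change was 0.88 (SE 0.11, adjusted p = 0.00045). Mir124a-1hg, the host transcript of the neuronal microRNA miR-124, had 7.80, 6.30 and 5.63 FPKM with BPA, BPF and BPS, against 3.24 FPKM with DMSO, a log2 change of 0.99 (SE 0.19, adjusted p = 0.011). Miat, a long noncoding RNA, had 15.1, 10.2 and 9.32 FPKM with BPA, BPF and BPS, against 5.98 FPKM with DMSO, a log2 change of 0.91 (SE 0.20, adjusted p = 0.024). The Miat values spread widely among the bisphenol libraries, with BPA highest. Onecut3, a transcription factor of developing neurons, had 6.09, 8.59 and 7.23 FPKM with BPA, BPF and BPS, against 4.02 FPKM with DMSO, a log2 change of 0.83. Igsf11, an adhesion molecule, Sema5b, a semaphorin, and Pik3cd, a catalytic subunit of PI3-kinase, rose by 0.88, 0.64 and 0.70 on the log2 scale. Cox8a, a subunit of cytochrome c oxidase, had 72.8, 70.9 and 71.6 FPKM with BPA, BPF and BPS, against 40.0 FPKM with DMSO, a log2 change of 0.81 (SE 0.14, adjusted p = 0.0042). Hspe1, a mitochondrial chaperonin, Fignl2, a relative of the microtubule-severing enzyme fidgetin, and Hoxd4 rose by 0.63, 0.60 and 0.60. Sall1, a transcription factor, had 28.99, 25.27 and 25.92 FPKM with BPA, BPF and BPS, against 17.98 FPKM with DMSO. Of the 27 higher genes, 4 were at 0 with DMSO, with 43 to 73 counts over the 3 bisphenol libraries. They are 3 gene models and Eif3j1, a translation initiation factor subunit with a near-identical copy, so their values are uncertain. With all 32 libraries giving the spread, the calls for Mir124a-1hg, Miat and Igsf11 were lost, with DESeq2 those for Miat, Igsf11 and Sema5b, without the BPA library that for Sema5b (log2 change 0.57, adjusted p = 0.054), and with no filter on low counts those for Miat, Igsf11, Onecut3, Sema5b, Hspe1 and Fignl2. Limma with either pseudocount kept the calls for Igdcc3 and Cox8a and lost those for Mir124a-1hg, Miat, Igsf11, Onecut3, Meg3, Pik3cd, Sema5b, Hspe1, Fignl2 and Hoxd4.

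In each of the progenitor, proneural and dorsoventral lists 1 member rose (3.45%, 5.26% and 5.88%), against 0.203% of all genes tested. The medians of these lists lay between 0.10 and 0.20. Of 29 tested progenitor genes 1 rose, Pax6, with 19.6, 18.8 and 18.4 FPKM with BPA, BPF and BPS, against 12.8 FPKM with DMSO, a log2 change of 0.52 (SE 0.11, adjusted p = 0.020), and the list's median was 0.10. Of 19 proneural factors 1 rose, Onecut2, with 9.59, 11.2 and 9.27 FPKM with BPA, BPF and BPS, against 6.75 FPKM with DMSO, and the median was 0.13. Of 17 dorsoventral progenitor factors 1 rose, Irx3, with 31.7, 32.6 and 32.2 FPKM with BPA, BPF and BPS, against 22.9 FPKM with DMSO, and the median was 0.20. All bisphenol libraries lay above DMSO for 15 of the progenitor genes, of which Pax6 alone passed. Hes5, a Notch target, had 32.9, 25.0 and 21.9 FPKM with BPA, BPF and BPS, against 16.8 FPKM with DMSO. None of 40 neuronal cytoskeleton and synapse genes and none of 34 cell cycle genes was called, with medians of 0.05 and 0.04. Without the BPA, BPF or BPS library, 2, 9 and 4 of the progenitor genes and 2 proneural factors each time were called, and without the BPA library 2 neuronal cytoskeleton genes.

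**Figure D3:**
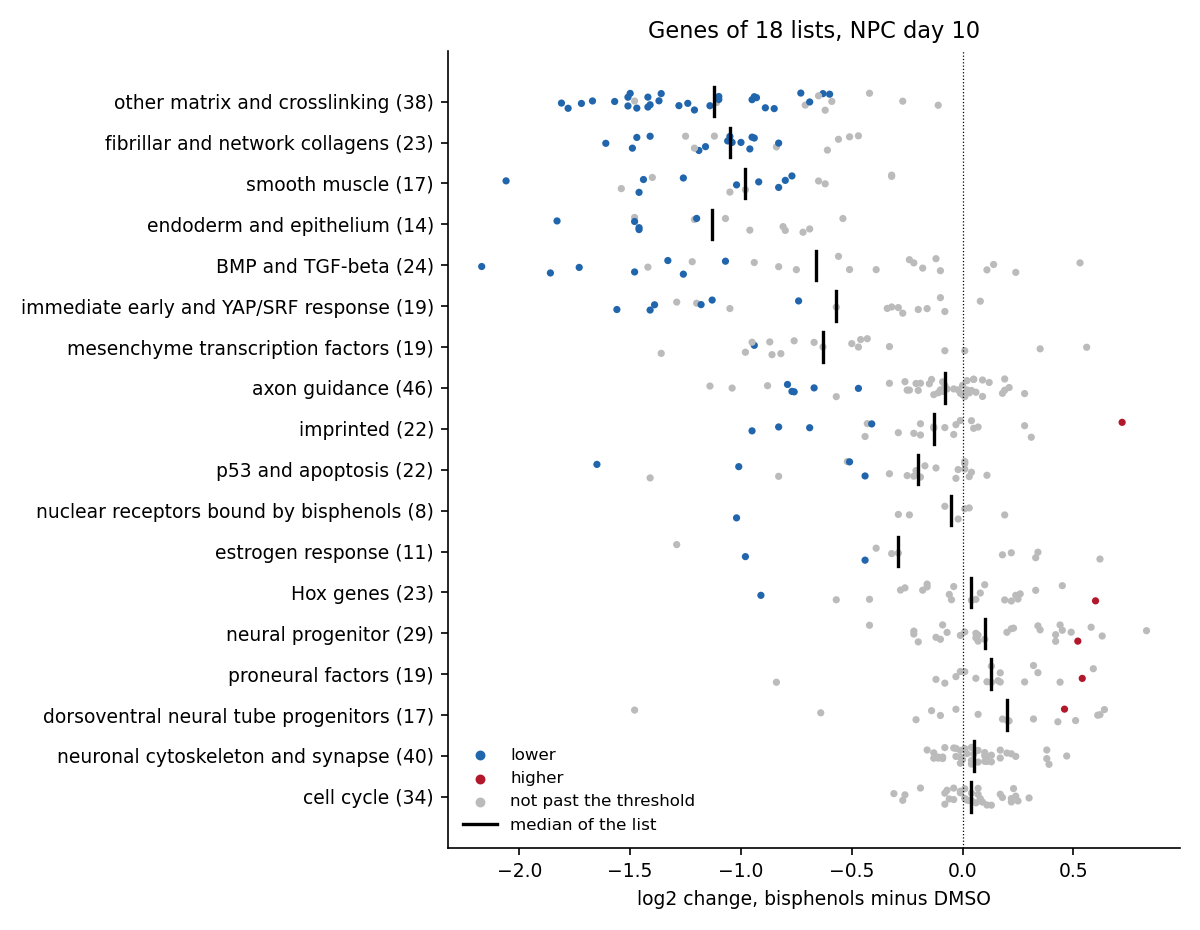
Log2 change of the 3 bisphenol libraries against the DMSO library for each tested gene (points) of the lists named at the left, with the number of genes tested in brackets and the list's median as a bar. Matrix, collagen, smooth muscle and epithelial lists have medians between -0.98 and -1.13, and the progenitor, proneural, dorsoventral, neuronal and cell cycle lists between 0.04 and 0.20.

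In the axon guidance, imprinted and p53 lists, 4 or 5 members each fell, against 2.46% of all genes tested. Of 46 axon guidance genes 5 fell (10.9%), led by Unc5c, a netrin receptor, at -0.79, Nrp1, a semaphorin and VEGF receptor, at -0.77, Sema5a at -0.76 and Sema3c at -0.67, and the median was -0.08; the count was 3 in DESeq2, 0 in limma with either pseudocount and 8 without the BPF or the BPS library. Among 22 imprinted genes 4 fell (18.2%) and 1 rose. Igf2, the fetal growth factor, had 182, 136 and 172 FPKM with BPA, BPF and BPS, against 309 FPKM with DMSO, and fell by 0.95 on the log2 scale. Dlk1, H19 and Mest fell by 0.83, 0.69 and 0.41. Meg3, the maternally expressed noncoding RNA that shares the Dlk1 domain, had 14.9, 13.2 and 10.3 FPKM with BPA, BPF and BPS, against 6.66 FPKM with DMSO, and rose by 0.72. The Meg3 call was lost with all 32 libraries giving the spread and in limma with either pseudocount. Rian and Mirg, noncoding RNAs near Meg3 on chromosome 12, changed by -0.03 and 0.07 on the log2 scale and were not called. Of 22 p53 and apoptosis genes 4 fell (18.2%), Perp by 1.65, Tnfrsf10b by 1.01, Eda2r by 0.51 and Cdkn1a, the cell cycle inhibitor p21, by 0.44. Of 23 Hox genes, Hoxd4 rose and Hoxa7 fell by 0.91. That is 4.35% each way, against 0.203% higher and 2.46% lower over all genes tested. None of the lists left undescribed had more than 3 called members. In the astrocyte and oligodendrocyte list these were 3 of 14 tested genes, all lower (21.4%), and the median was -0.01. Gja1, Pdgfra and Nfib fell by 0.55, 0.97 and 0.69 on the log2 scale, and Pdgfra is also a mesenchymal marker here.

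Of the receptors and response genes linked to bisphenols, 4 fell and none rose, against 2.46% lower among all genes tested. Of 8 tested nuclear receptors 1 was called (12.5%): Nr3c1, the glucocorticoid receptor, had 1.12, 0.75 and 0.90 FPKM with BPA, BPF and BPS, against 1.83 FPKM with DMSO, a log2 change of -1.02 (SE 0.24, adjusted p = 0.038). Esrrg, an estrogen-related receptor that binds BPA, had 11.6, 14.9 and 12.3 FPKM with BPA, BPF and BPS, against 15.5 FPKM with DMSO, and was not called. Of 11 tested estrogen response genes 2 fell (18.2%): Cxcl12, a chemokine that mesenchymal cells also make, by 0.98 and Igfbp4, an IGF-binding protein, by 0.44. Of 13 aryl hydrocarbon and xenobiotic response genes 1 was called (7.69%). Cyp1b1, a cytochrome P450 that this receptor induces, fell, with 4.51, 4.69 and 5.08 FPKM with BPA, BPF and BPS, against 10.5 FPKM with DMSO. None of 24 listed cholesterol synthesis genes and none of 30 listed respiratory chain genes was called. Cox8a, described with the higher genes, is not on the latter list.

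A pair of histone H2A genes was called lower through values of 0 in every bisphenol library. H2ac24 (chr13:21833024-21833475, mm10) was listed at 0 with BPA, BPF and BPS, against 67.4 FPKM and 287 counts with DMSO, at least 285-fold lower when 3 counts over the 3 bisphenol libraries are taken as the floor. H2ac19 (chr3:96239779-96240374, mm10) was also at 0 in the bisphenol libraries, against 42 counts with DMSO, at least 41.7-fold lower, and its call was lost with all 32 libraries giving the spread. H2A genes are near-identical copies between which counting can split reads, and H2ac24 was listed in 5 of the 32 libraries only. In the RA EBs its order was turned round, at 216, 297 and 174 FPKM with BPA, BPF and BPS, against 0 with DMSO. All 17 H2ac genes together held 3163, 2078 and 2597 counts with BPA, BPF and BPS, against 2390 counts with DMSO, which lies within the range of the bisphenol libraries. The values of the single copies are therefore uncertain.

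The compounds were set against DMSO one at a time in a fit over all 32 libraries, where the other stages give the spread with 14 residual degrees of freedom. These 3 comparisons share the DMSO library. With BPA 167 genes were lower (1.25%) and 52 higher (0.391%), with BPF 251 lower (1.89%) and 22 higher (0.165%), and with BPS 115 lower (0.864%) and 15 higher (0.113%). The 327 genes lower in the joint comparison had a median log2 change of -0.93 with BPA, -1.15 with BPF and -0.87 with BPS. BPF had the lowest FPKM of the 3 compounds in 238 of 324 of these genes that were not tied (73.5%), against 37.0% among all genes tested. The collagen list had medians of -0.97, -1.27 and -0.84 with BPA, BPF and BPS, and the endoderm and epithelium list -0.62, -1.54 and -1.16. Igdcc3 and Cox8a rose with each compound alone, by 0.85, 0.90 and 0.96 and by 0.83, 0.84 and 0.85 on the log2 scale with BPA, BPF and BPS.

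All 3 pairs of compounds, which share dose and day, were compared directly, with p-values adjusted over all genes and pairs together. BPA against BPF gave 3 called genes (0.0225%), BPA against BPS 2 (0.0150%) and BPF against BPS 0 (0%) in edgeR. An unadjusted p under 0.05 was found for 953, 902 and 526 genes in these pairs, the last being fewer than 5% of the genes tested. Ldha, lactate dehydrogenase A, had 137 FPKM with BPA, 74.6 FPKM with BPF, 78.8 FPKM with BPS and 88.2 FPKM with DMSO. BPA minus BPF was 0.84 on the log2 scale (95% interval 0.60 to 1.08, adjusted p = 0.0080) and BPA minus BPS was 0.75 (95% interval 0.52 to 0.99, adjusted p = 0.013). Slc16a3, a lactate exporter, had 16.1 FPKM with BPA, 6.57 FPKM with BPF, 8.50 FPKM with BPS and 6.84 FPKM with DMSO, and BPA minus BPF was 1.27 (95% interval 0.88 to 1.65, adjusted p = 0.010). Pdk1, a kinase that inhibits pyruvate dehydrogenase, had 5.53 FPKM with BPA, 2.85 FPKM with BPF, 3.10 FPKM with BPS and 3.09 FPKM with DMSO, and BPA minus BPF was 0.91 (95% interval 0.59 to 1.24, adjusted p = 0.045). Ldha, Slc16a3 and Pdk1 were each highest in the BPA library, and were named because a comparison with BPA called them. Over 23 tested hypoxia and glycolysis genes, the median log2 difference was 0.45 for BPA minus BPF, 0.35 for BPA minus BPS and -0.11 for BPF minus BPS. Ubb, a ubiquitin gene, had 1578 FPKM with BPA, 2264 FPKM with BPF, 2385 FPKM with BPS and 2367 FPKM with DMSO, and BPA minus BPS was -0.74 (95% interval -1.0 to -0.48, adjusted p = 0.045). With 1 library per compound, a culture and its compound cannot be told apart.

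**Figure D4:**
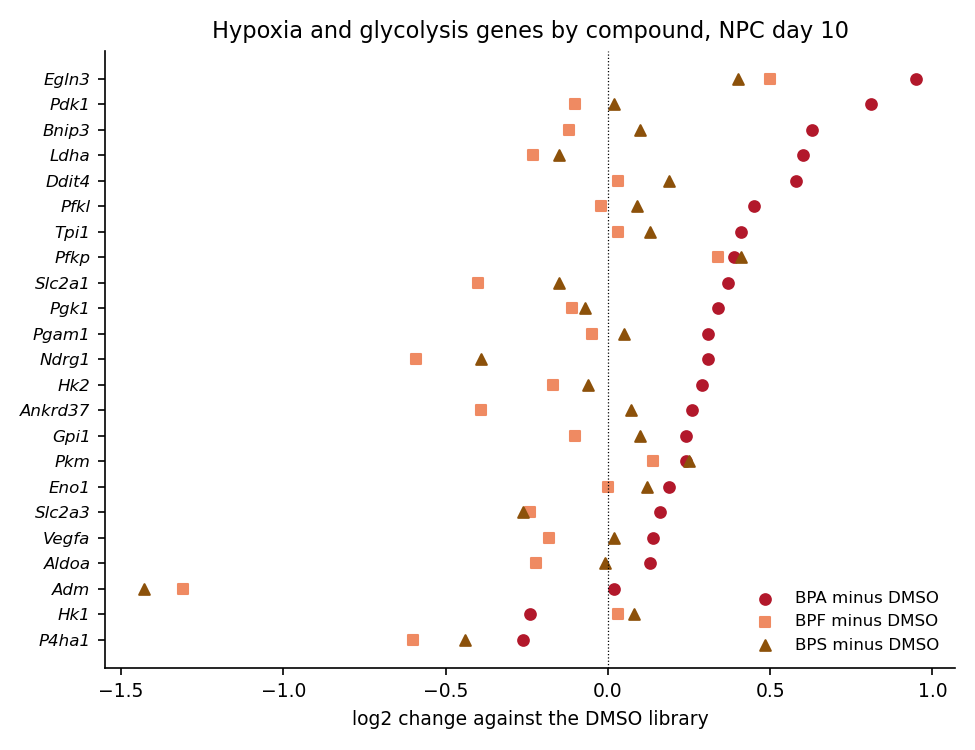
Log2 change of each bisphenol library against the DMSO library for the 23 tested hypoxia and glycolysis genes (rows), ordered by the BPA value. Ldha, Pdk1 and Bnip3 lie at 0.60, 0.81 and 0.63 with BPA, and at -0.23, -0.10 and -0.12 with BPF.

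For the matrix genes and other lower genes given here the pairs did not separate at the threshold, and the intervals were wide. Tnc gave -1.61 for BPF minus BPS (95% interval -2.35 to -0.86, adjusted p = 0.29), and Thbs1 gave -1.28 (95% interval -1.91 to -0.65, adjusted p = 0.39). Emp1 gave 0.92 for BPA minus BPF (95% interval 0.33 to 1.5, adjusted p = 0.59), and Inhba gave 1.20 (95% interval 0.10 to 2.30, adjusted p = 0.82). Each of these intervals excludes 0 on its own, and none of the differences held after adjustment. Of the 327 lower genes, the unadjusted interval excluded 0 for 27 in BPA minus BPF, 11 in BPA minus BPS and 49 in BPF minus BPS. Over the 13314 genes tested, an unadjusted p under 0.05 was found for 953, 902 and 526 in edgeR. Cox8a gave -0.01 for BPA minus BPF (95% interval -0.41 to 0.40), and over all genes the 95% interval reached a median of 0.37 to either side of the estimate. A p that misses the threshold here does not show that the compounds act alike.

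The bisphenol effect in NPC cultures was set against the same contrast at other stages, each of which has its own DMSO library. In RA EBs on day 8, the stage sampled before NPCs on this route, the 327 genes lower in NPC cultures had a median log2 effect of 0.00, and 5 of them were lower and 2 higher at that stage, against 1.70% and 1.33% of all genes tested. The difference between the NPC effect and the RA EB effect was called lower for 201 genes (1.51%) and higher for 145 (1.09%), and for 116 of the 327 genes in either direction. In EBs of the global differentiation route many of these genes had effects of the opposite sign. On day 9 their median effect was 0.41, 100 were called higher and 7 lower, against 3.95% and 3.73% of all genes tested. On day 12 their median was 1.33, 258 were called higher and 6 lower, against 11.4% and 6.46% of all genes tested. The NPC effect minus the day 9 effect was called lower for 698 genes (5.24%) and higher for 408 (3.06%), and minus the day 12 effect for 1326 (9.96%) and 700 (5.26%). Of the 327 genes, the difference was called for 261 against day 9 and for 307 against day 12. Because these genes were chosen on the NPC contrast, which is part of each difference, the counts over them are a description.

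Col3a1 shows the turn. In NPC cultures it had 117, 105 and 109 FPKM with BPA, BPF and BPS, against 223 FPKM with DMSO. In EBs on day 12 it had 195, 207 and 207 FPKM with BPA, BPF and BPS, against 9.72 FPKM with DMSO, a log2 effect of 4.40. The difference of the effects was -5.42 (SE 0.23, adjusted p = 6.9e-15). In RA EBs it was low everywhere, with 3.85, 3.13 and 3.71 FPKM with BPA, BPF and BPS, against 4.96 FPKM with DMSO. For this gene the DMSO libraries of NPC cultures and day 12 EBs lie further apart than the bisphenol libraries of these stages. The collagen list had median effects of 0.16 in RA EBs, 0.67 in EBs on day 9 and 2.35 on day 12, and the smooth muscle list 0.19, 0.39 and 2.80.

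Of 29 tested progenitor genes, the NPC effect minus the day 12 effect was called higher for 14 and lower for 2, and of 19 proneural factors for 13 and 0. The dorsoventral list had 3 higher and 3 lower, and the spinal and hindbrain neuron identity list 2 higher and 6 lower. Over all genes tested, this difference was called higher for 5.26% and lower for 9.96%. Pax6 was higher with bisphenols in NPC cultures, but in EBs on day 12 it had 6.75, 7.41 and 6.25 FPKM with BPA, BPF and BPS, against 14.4 FPKM with DMSO, and the difference of the effects was 1.62 (SE 0.18, adjusted p = 3.3e-07). Onecut2 had 2.45, 1.96 and 2.42 FPKM with BPA, BPF and BPS in EBs on day 12, against 5.19 FPKM with DMSO, and the difference of the effects was 1.74 (SE 0.21, adjusted p = 8.5e-07). Igdcc3 had 182, 150 and 132 FPKM with BPA, BPF and BPS in EBs on day 12, against 274 FPKM with DMSO, a difference of 1.71. The 27 genes higher in NPC cultures had median effects of 0.03 in RA EBs, -0.07 in EBs on day 9 and -0.54 on day 12. Cox8a also differed from RA EBs, where it had 83.6, 58.1 and 75.0 FPKM with BPA, BPF and BPS, against 191 FPKM with DMSO, and the difference of the effects was 2.19 (SE 0.22, adjusted p = 3e-06).

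**Figure D5:**
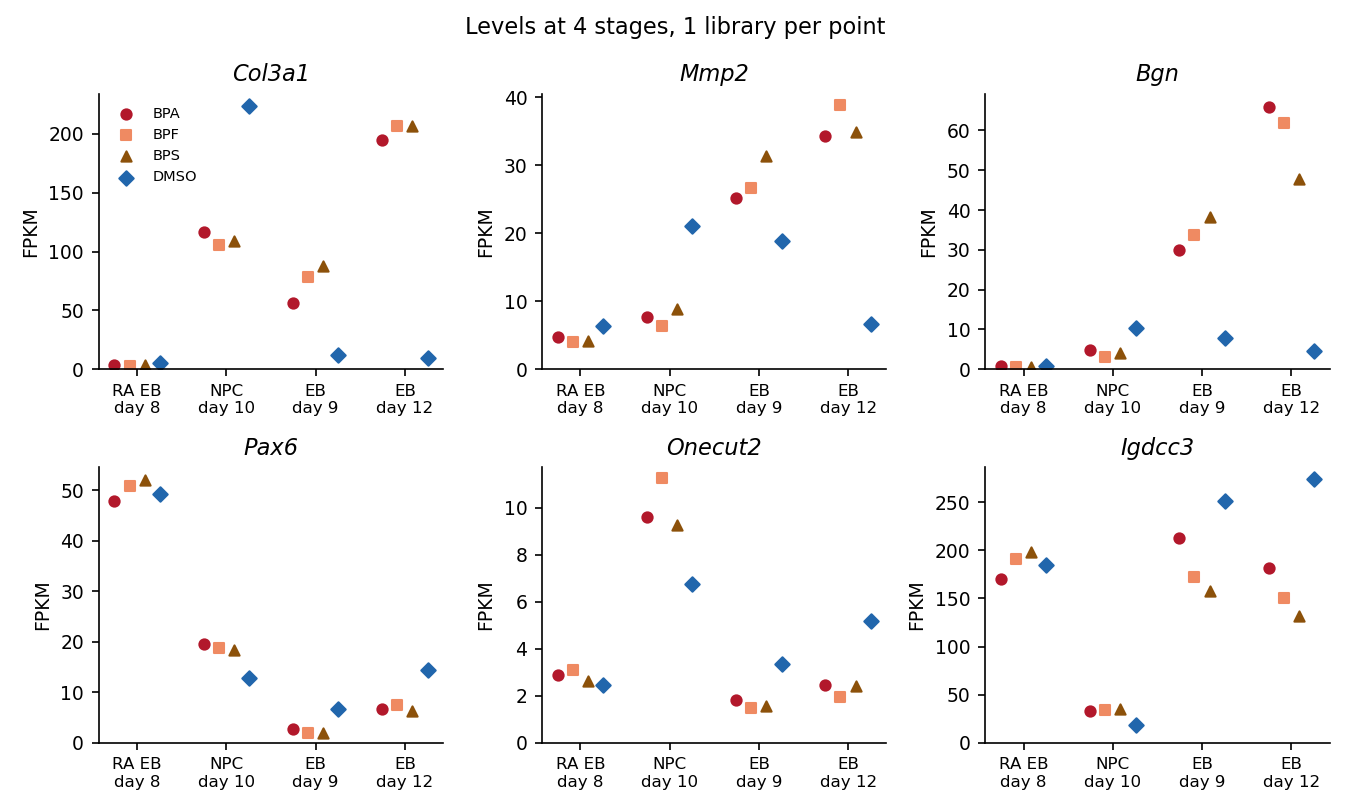
FPKM of 6 genes in every library of RA EBs on day 8, NPC cultures on day 10, and EBs on days 9 and 12, 1 library per point, with BPA, BPF and BPS left of DMSO in each group. Col3a1, Mmp2 and Bgn are below DMSO with bisphenols in NPC cultures and above it in EBs on days 9 and 12, and Pax6 and Onecut2 are placed the other way round.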

How the data were processed

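Total RNA was sequenced from 32 cultures, 1 per treatment at each of 8 stages, by library protocols not described further in the labels. Per gene, the authors deposited expected counts, which are not normalized, and FPKM, per the file headers. Per the submitters' processing notes, HISAT, Bowtie2 and RSEM were used with mm10, their roles and versions not given. No gene below 0.01 FPKM is listed, and such genes were set to 0. Gene IDs were matched to RefSeq names: 20551 of 20612 by ID, 9 by transcript, and 52 not. Expected counts were rounded, scaled by TMM factors (0.984 to 1.024) and tested with edgeR 4.0.16 in R 4.3.3, with 2 residual degrees of freedom among the 4 NPC libraries and 11.77 more from the shared prior. Stage differences used all 32 libraries, with 16 residual degrees of freedom. On data simulated for the joint NPC comparison, over 13220 genes, 94% of genes changed by 1 on the log2 scale were called, and 7 unchanged genes. The changed genes were drawn only from those with higher counts. The simulated DMSO library varied like the others, so a property of that culture was not simulated. DESeq2 1.42.0, limma 3.58.1 (pseudocounts of 1 and 0.1), other scalings and filters and leaving out each bisphenol library were the alternatives.

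The libraries, gene lists and tests were chosen with earlier results of these data known. Named genes are the 12 called genes highest and the 12 lowest in log2 change with at least 5 FPKM in either class and all bisphenol libraries on one side of DMSO, up to 4 called members per list, 4 called genes per compound pair and 4 higher and 4 lower per stage difference, besides the cell type markers. Others, such as Fn1, Col4a1, Sall1, Jun and Esrrg, were chosen after their values were seen. Counts are of fragments without molecular identifiers, so counting floors cover counting error only.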

Additional observations from a re-analysis of the deposited data

Results flagged for a closer look

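The bisphenol effect, bisphenols minus DMSO on the log2 scale, differed between NPC cultures and other stages in edgeR's test of the difference, adjusted over 13314 genes. The values in brackets are the NPC effect minus the effect at the other stage, for the 4 higher and 4 lower genes with the smallest p. Against RA EBs on day 8 they were Cox8a (2.19), Tmem258 (1.98), Krtcap2 (1.92), Atp5g2 (1.31), Etfb (-0.97), Ltbp1 (-1.72) and Col5a1 (-1.54). H2ac24 gave -24.13, a fitted value that depends on the prior count, because the gene is at 0 with bisphenols in NPC cultures and at 0 with DMSO in RA EBs. For Cox8a, Tmem258, Krtcap2 and Atp5g2 the RA EB library with DMSO was far above those with bisphenols: Tmem258 had 31.3, 31.1 and 31.7 FPKM with BPA, BPF and BPS, against 72.7 FPKM with DMSO.

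Against EBs on day 9 the differences were Pax6 (2.17), Pde1b (1.4), Mab21l2 (1.83), Onecut2 (1.64), Col3a1 (-3.64), Tgfb2 (-2.49), Bgn (-3.52) and Mmp2 (-2.01). Against EBs on day 12 they were Pax6 (1.62), Onecut2 (1.74), Igdcc3 (1.71), Smoc1 (1.35), Col3a1 (-5.42), Mmp2 (-3.91), Col1a2 (-5.94) and Bgn (-5.12). Mab21l2, a factor of eye and midbrain development, had 251, 268 and 235 FPKM in NPC cultures with BPA, BPF and BPS, against 215 FPKM with DMSO, and in EBs on day 9 it had 25.5, 17.3 and 16.4 FPKM with BPA, BPF and BPS, against 59.5 FPKM with DMSO. Each stage has 1 DMSO library, so a stage difference and a difference between those cultures cannot be told apart.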

How the results depend on the processing

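No paired analysis was possible because each treatment has 1 library and the labels give no shared replicate numbers. The joint NPC comparison called 354 genes, and called 212 with DESeq2, 54 and 20 with limma on log2(FPKM + 1) and log2(FPKM + 0.1), and 177 when a log2 change of 1 was also required. Leaving out a bisphenol library gave 446 to 492 calls. All 32 libraries giving the spread gave 376, and other scalings and count filters 279 to 360. With limma on log2(FPKM + 1), the median log2 change was -0.83 for collagens, -0.70 for smooth muscle, -0.32 for BMP and TGF-beta and -0.28 for mesenchyme transcription factors. The BMP and TGF-beta median was -0.75 with no filter, -0.94 with a mean of 5 CPM, -0.57 with limma on log2(FPKM + 0.1), and -0.61 to -0.71 with a library left out. The mesenchyme factor median was -0.33 with a mean of 5 CPM and -0.48 to -0.80 with a library left out. The progenitor median was 0.13 with all 32 libraries, 0.16 with no filter, 0.14 with limma on log2(FPKM + 0.1) and 0.08 to 0.16 with a library left out. Counts for single compounds, compound pairs and stage differences stayed within 1.5 times under every alternative run for them. None of the results run under these alternatives changed direction. Of the 24 named genes, 20 lost the call in limma with either pseudocount, 6 in DESeq2, 6 with no filter, 5 with all 32 libraries, and Sema5b with a mean of 5 CPM or without the BPA library; the cause was not tested. In counts simulated for the joint comparison, 94% of genes given a log2 change of 1 and 100% of those given 2 were recovered. Smaller changes, and changes in genes with low counts, were not simulated.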
